A study of Homo sapiens with 9 samples.

Results

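The 45 genes described here encode parts of the lysosome and of the autophagy machinery: lysosomal membrane proteins, proteases, other hydrolases, the proton pump, the TFEB family of transcription factors and the core autophagy proteins. They were chosen by symbol, and each symbol matched 1 gene identifier. All 45 were among the 20868 genes tested, out of 61806 identifiers in the deposited count table. The cells were HCT116, an established line from a human colorectal cancer, transfected by lipid reagent with siRNA 2 (3 libraries), siRNA 1 (3 libraries) or a control siRNA (3 libraries). Both siRNAs target EXOSC10-AS1, a non-coding RNA transcribed antisense to EXOSC10, and all 9 libraries carry the same batch entry, day 3. Nothing in the labels ties the libraries of a group to separate transfections. The p-values therefore measure only the spread between these libraries, which may be technical. The comparisons ask which of these genes differ when EXOSC10-AS1 is targeted and whether the siRNAs differ from each other.

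Lysosomes are acidic organelles in which hydrolases degrade proteins, glycans and lipids. The vacuolar ATPase pumps protons into them, and heavily glycosylated membrane proteins such as LAMP1 and LAMP2 line their inner face. Autophagy delivers cytoplasm to the lysosome in double-membraned vesicles, on whose membrane the LC3 and GABARAP proteins are anchored to lipid. TFEB, TFE3 and MITF bind a short palindromic element, called CLEAR, near the start sites of many lysosomal genes, and colon cancer cells, like other cells, use the pathway to recycle nutrients.

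The E-box core CACGTG and the longer palindrome TCACGTGA, the centre of the CLEAR element, were searched on both strands in RefSeq promoter windows of 250 bases before to 50 bases after a start site (GRCh38.p14). Windows were at hand for 35 of the 45 genes. Both motifs read the same on either strand, and every TCACGTGA also holds a CACGTG. The core was found in 8 of the 35 genes (22.9%), against 8.77% of the 27305 genes with a window and 12% of the 12760 tested genes with a window. The longer palindrome was found in 5 of the 35 (14.3%), against 1.18% and 1.98%. Some genes had several windows. CD63 was counted although only the window of the stretch shown, among its several, held the core. The stretches that hold the cores upstream of the start site are shown for all 8 genes. Of these, LAMP1, MCOLN1, CTSA and NEU1 were called lower with siRNA 2 against control, and CD63, CTSD, GAA and ATP6V0D1 were not. Whether the motif has a part in the fold changes was not tested. Capitals mark the core, or the whole longer palindrome where it is present, and all stretches lie upstream of the annotated transcription start, 5′ to 3′ on the gene's strand.
LAMP1, chr13:113297023-113297238, plus strand, 5 of the 6 cores in the window: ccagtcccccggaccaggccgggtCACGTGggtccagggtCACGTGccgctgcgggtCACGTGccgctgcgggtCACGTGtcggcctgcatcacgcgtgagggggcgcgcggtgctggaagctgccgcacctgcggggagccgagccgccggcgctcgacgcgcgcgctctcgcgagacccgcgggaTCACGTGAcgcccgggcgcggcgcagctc
MCOLN1, chr19:7522559-7522623, plus strand: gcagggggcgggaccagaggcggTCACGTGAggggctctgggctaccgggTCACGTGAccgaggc
CTSA, chr20:45891269-45891334, plus strand: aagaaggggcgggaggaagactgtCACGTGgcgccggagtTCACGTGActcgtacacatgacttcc
GAA, chr17:80101481-80101579, plus strand: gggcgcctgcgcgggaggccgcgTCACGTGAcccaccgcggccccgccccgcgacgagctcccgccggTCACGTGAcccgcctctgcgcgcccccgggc
ATP6V0D1, chr16:67481187-67481240, minus strand: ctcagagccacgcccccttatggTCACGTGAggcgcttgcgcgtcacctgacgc
CTSD, chr11:1763945-1763998, minus strand: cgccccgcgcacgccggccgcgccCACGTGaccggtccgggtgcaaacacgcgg
NEU1, chr6:31862918-31862971, minus strand: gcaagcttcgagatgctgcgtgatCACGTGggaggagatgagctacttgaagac
CD63, chr12:55729160-55729213, minus strand: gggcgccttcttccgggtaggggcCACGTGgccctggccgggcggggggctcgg

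Depth ranged from 56.8 to 66.5 M counts per library. EXOSC10-AS1 itself had 5, 13 and 0 counts with siRNA 2, 4, 0 and 0 with siRNA 1 and 26, 4 and 14 in control. It was not called lower with siRNA 2 (-1.29 ± 1.24, adjusted p = 0.55) or siRNA 1 (-3.40 ± 1.45, adjusted p = 0.19). EXOSC10, which overlaps it on the opposite strand, was not called either, at 0.13 ± 0.07 for siRNA 2 (adjusted p = 0.27) and at 0.06 ± 0.07 for siRNA 1 (adjusted p = 0.68). In 3 libraries expression followed the GC content of the transcripts. The correlation across genes between GC content and the deviation from the mean of all libraries was -0.302 and -0.322 in siRNA 2 replicates 2 and 3 and 0.448 in siRNA 1 replicate 1. It lay between -0.0467 and 0.0776 in the other libraries. Levels are given in CPM, counts scaled to library size by TMM factors. The 5 colon epithelial markers (EPCAM, KRT8, KRT18, CDH1 and CLDN7) all had counts and summed to 2225 to 2617 CPM with siRNA 2, 2654 to 3103 CPM with siRNA 1 and 3000 to 3062 CPM in control. The 6 fibroblast markers, mostly COL1A1, summed to 36.1 to 40.3 CPM with siRNA 2, 46.9 to 52.4 CPM with siRNA 1 and 59.5 to 61.3 CPM in control. With siRNA 2 against control, KRT8 (-0.40), KRT18 (-0.30), CLDN7 (-0.62) and COL1A1 (-0.69) were called lower, EPCAM and CDH1 were not called, and the fibroblast markers DCN and PDGFRB stood at 0.43 and 0.41, not called. With siRNA 1, CLDN7 (0.69) and CDH1 (0.30) were called higher. The part of these markers in the results was not tested.

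More of the 45 genes fell than rose with siRNA 2 against control, and 22 differed between the siRNAs. Fewer were called with siRNA 1 than with siRNA 2. With the GC trend of each library removed the counts were close, 17 with siRNA 2 and 18 with siRNA 1. With a replicate block as well they were 17 and 16, beside 4257 and 3875 of 20154 genes. A call means an adjusted p under 0.05 in edgeR's quasi-likelihood test, with Benjamini-Hochberg adjustment over all genes tested. With siRNA 2, 3 genes rose and 13 fell against control, 35.6% of the 45, beside 13.8% of all genes tested (6.15% higher and 7.61% lower). With siRNA 1, 5 rose and 3 fell, 17.8% of the 45, beside 7.08% of all genes (3.72% higher and 3.36% lower). Between siRNA 2 and siRNA 1, 5 were higher and 17 lower with siRNA 2, 48.9% of the 45, beside 22.4% of all genes (10.1% higher and 12.3% lower). Requiring a change of at least 1.5-fold as well left 4, 3 and 7 of the 45 genes called in these comparisons, beside 5.66%, 2.82% and 10.5% of all genes. Without the 3 libraries that followed GC content siRNA 2 keeps 1 library, so the numbers of calls in that setting are not given in the text. The plot of called genes under each alternative includes that setting, as do the alternatives used to judge which calls were kept. With the GC trend of each library removed, 3 rose and 14 fell with siRNA 2 and 10 rose and 8 fell with siRNA 1, beside 4464 and 4145 of 20154 genes. Those with siRNA 1 were the genes called before and further ones. CTSC, GAA, GUSB, TFEB and ATP6V0D1 joined as higher, and CTSA, CTSB, ATP6AP1, GABARAPL1 and ATG12 as lower. The median log2 fold change of the 45 genes was -0.09 with siRNA 2 and 0.03 with siRNA 1 against control, beside -0.01 and -0.02 over all genes. Between siRNA 2 and siRNA 1 it was -0.13, beside 0.00 over all genes. The comparisons of each siRNA with control share the control libraries. In all, 26 of the 45 genes were called in at least 1 comparison and 19 in none. Standard errors follow ± beside each log2 fold change, and SD is named where it is given instead.

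**Figure D1:**
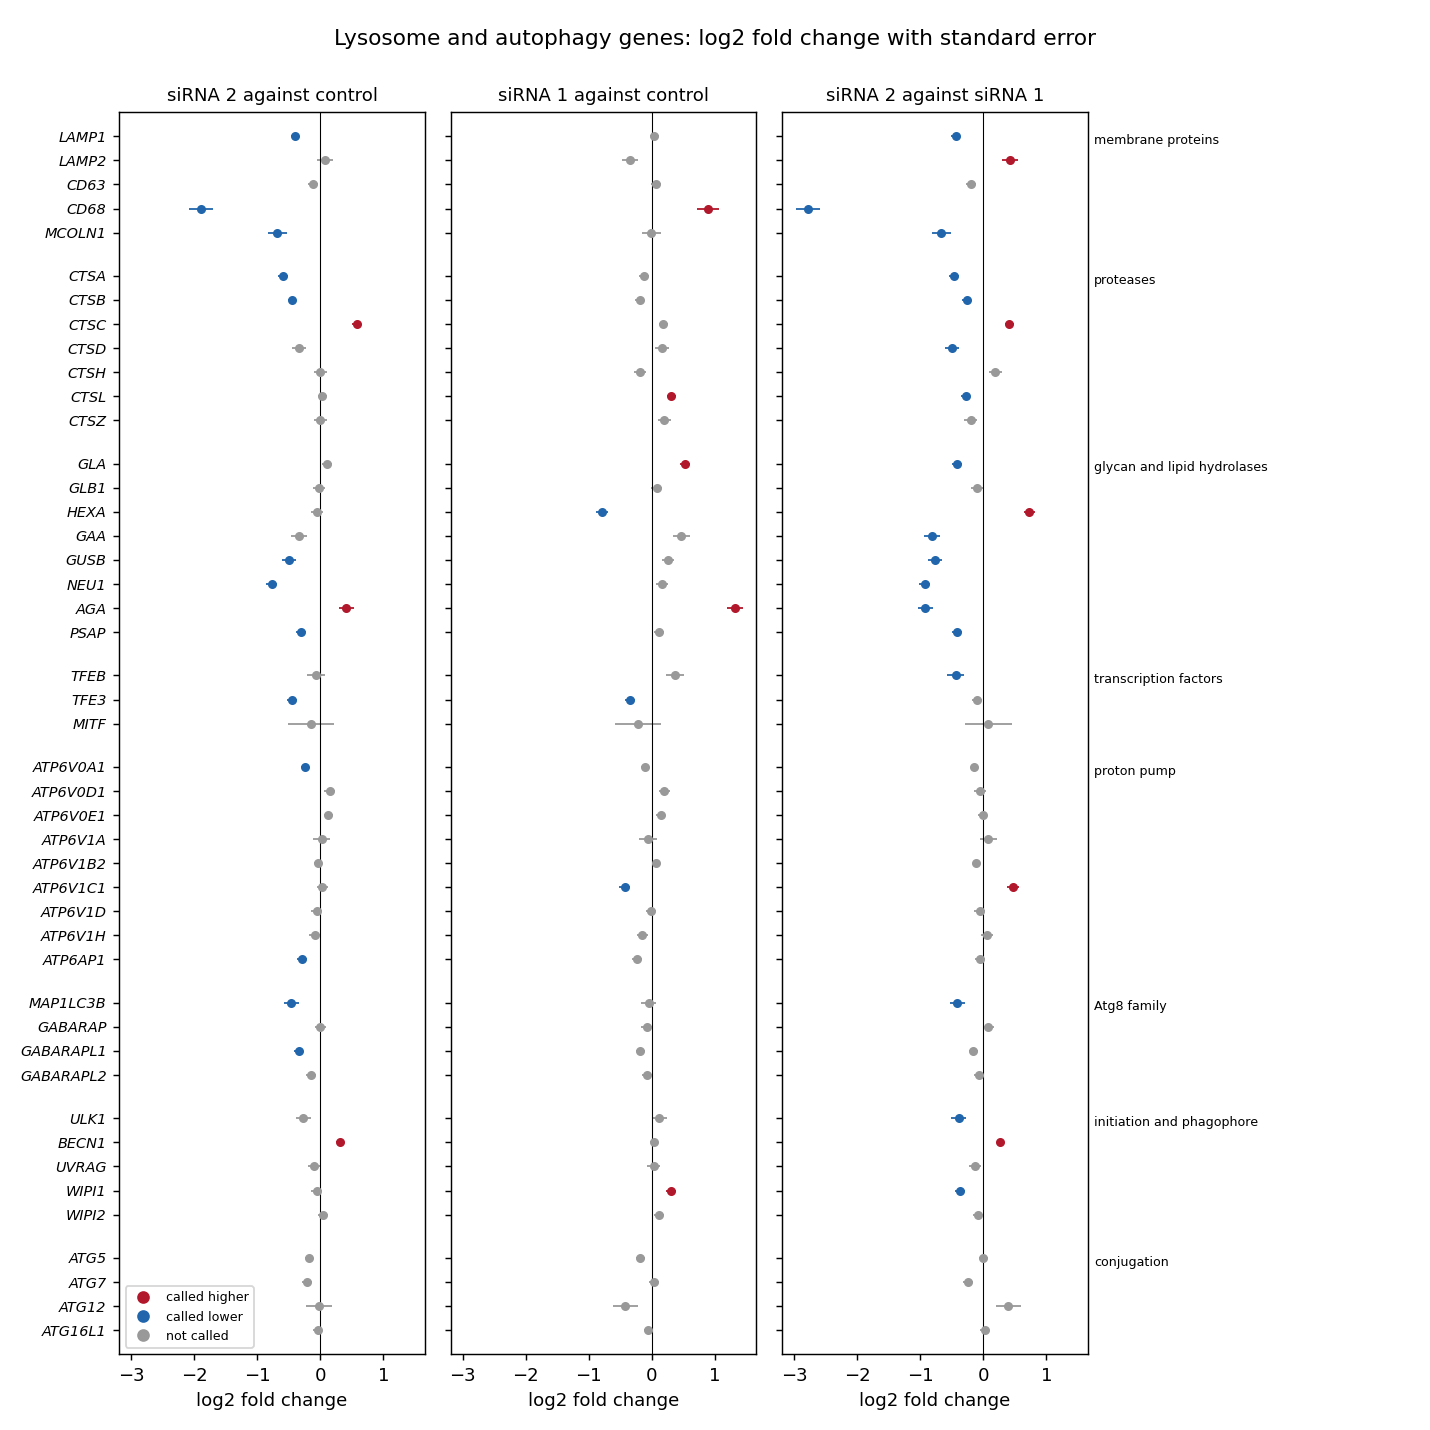
Log2 fold change (point) and its standard error (bar) of each of the 45 genes, grouped by role, for siRNA 2 against control, siRNA 1 against control and siRNA 2 against siRNA 1. Red marks genes called higher, blue genes called lower and grey genes not called. CD68 lies farthest to the left in the comparisons of siRNA 2, at -1.90 and -2.78, and AGA farthest to the right with siRNA 1, at 1.32.

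Among the 5 lysosomal membrane proteins, 3 (60%) fell with siRNA 2 and 1 (20%) rose with siRNA 1 against control, beside 13.8% and 7.08% of all genes called. CD68, a glycoprotein of late endosomes and lysosomes best known from macrophages, changed most of all 45 genes with siRNA 2. CD68 had 4.55, 6.48 and 3.87 CPM with siRNA 2, 36.7, 31.8 and 33.9 CPM with siRNA 1 and 18.4, 21.5 and 15.5 CPM in control. The 3 groups did not overlap: every siRNA 2 library lay below, and every siRNA 1 library above, every control library. The fold sizes were 3.72 (-1.90 ± 0.19, adjusted p = 0.00039) with siRNA 2 and 1.85 (0.89 ± 0.18, adjusted p = 0.018) with siRNA 1, and siRNA 2 stood 6.87-fold below siRNA 1 (-2.78 ± 0.19, adjusted p = 4.1e-05). The call with siRNA 1 was lost without siRNA 1 replicate 3 or without control replicate 1 or 3 (adjusted p up to 0.09). Of 10 macrophage and leukocyte markers 7 had any counts, PTPRC, CD163 and TYROBP were at 0 in all libraries, and none of the 5 that were tested was called against control. With siRNA 2 against control CD14 stood at -0.97, CSF1R at -1.55, FCER1G at -0.92 and ITGAM at -0.16, and LYZ at 0.55. Between the siRNAs LYZ was called higher with siRNA 2 (1.01, adjusted p = 0.048), opposite to CD68, at 20 to 61 counts per library. The others were not called there, with CSF1R at -0.21, FCER1G at -1.02, CD14 at 0.16 and ITGAM at 0.31. The summed level of the list was 1.87 to 2.26 CPM with siRNA 2, 1.35 to 1.79 CPM with siRNA 1 and 2.47 to 3.20 CPM in control. Exons of CD68 share 647 bases with AC016876.2 on the same strand, which averaged 31.9 ± 7.28 CPM with siRNA 2, 36.9 ± 6.2 CPM with siRNA 1 and 31.5 ± 15.6 CPM in control (SD, n = 3) and was not called. How reads of the shared part were assigned was not tested.

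LAMP1, one of the most abundant lysosomal membrane proteins, had 207, 176 and 177 CPM with siRNA 2, 264, 248 and 250 CPM with siRNA 1 and 253, 243 and 242 CPM in control. All siRNA 2 libraries lay below all others, and LAMP1 fell with siRNA 2 (-0.40 ± 0.07, adjusted p = 0.0077) and was lower than with siRNA 1 (-0.44 ± 0.07, adjusted p = 0.0034). MCOLN1, the calcium channel of the lysosomal membrane, had 12, 9.47 and 11.5 CPM with siRNA 2, 21.0, 17.3 and 14.3 CPM with siRNA 1 and 16.8, 18.6 and 17.6 CPM in control. Its siRNA 2 libraries were the lowest of the 9, and it fell with siRNA 2 (-0.68 ± 0.15, adjusted p = 0.016) and was lower than with siRNA 1 (-0.67 ± 0.15, adjusted p = 0.012). LAMP2, whose isoforms include a receptor of chaperone-mediated autophagy, had 106, 114 and 115 CPM with siRNA 2, 64.8, 100 and 86.4 CPM with siRNA 1 and 103, 107 and 110 CPM in control. LAMP2 was called only between the siRNAs (0.42 ± 0.13, adjusted p = 0.045), with siRNA 1 replicate 1 the lowest library. With siRNA 1 against control it stood at -0.35 ± 0.13 (adjusted p = 0.14). CD63, a tetraspanin of late endosomes, was not called in any comparison (-0.12, 0.07 and -0.19). The fall of LAMP1 was lost without control replicate 1 (adjusted p = 0.05 after rounding). That of MCOLN1 with siRNA 2 was lost without siRNA 2 replicate 2 or 3 or any control library (adjusted p up to 0.073) and its difference from siRNA 1 without siRNA 2 replicate 2 (adjusted p = 0.056). The LAMP2 difference was lost without siRNA 2 replicate 2 or 3, siRNA 1 replicate 3 or any control library (adjusted p up to 0.13).

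The 7 cathepsins, the proteases of the lysosome, moved in both directions with siRNA 2, 2 falling and 1 rising (42.9% called, beside 13.8% of all genes). CTSA, a serine carboxypeptidase that also protects NEU1 and beta-galactosidase from degradation, had 133, 117 and 117 CPM with siRNA 2, 184, 164 and 157 CPM with siRNA 1 and 187, 179 and 188 CPM in control. CTSA fell with siRNA 2 (-0.59 ± 0.08, adjusted p = 0.0017) and was lower than with siRNA 1 (-0.46 ± 0.08, adjusted p = 0.0042), and no siRNA 2 library overlapped another group. CTSB, a cysteine protease, had 340, 300 and 302 CPM with siRNA 2, 411, 360 and 356 CPM with siRNA 1 and 424, 431 and 431 CPM in control. The order was siRNA 2, then siRNA 1, then control from low to high, and CTSB fell with siRNA 2 (-0.45 ± 0.07, adjusted p = 0.0045) and was lower than with siRNA 1 (-0.26 ± 0.07, adjusted p = 0.032). CTSC, the dipeptidyl peptidase that activates serine proteases of immune cells, went the other way, with 52.7, 49.9 and 52.0 CPM with siRNA 2, 36.5, 39.1 and 41.1 CPM with siRNA 1 and 35.0, 34.9 and 33.5 CPM in control. CTSC rose with siRNA 2 (0.58 ± 0.07, adjusted p = 0.0012) and was higher than with siRNA 1 (0.41 ± 0.07, adjusted p = 0.0044).

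CTSD, an aspartic protease, had 151, 115 and 118 CPM with siRNA 2, 195, 179 and 169 CPM with siRNA 1 and 157, 163 and 167 CPM in control. It was lower with siRNA 2 than with siRNA 1 (-0.50 ± 0.11, adjusted p = 0.0099), while its value against control missed the threshold with siRNA 2 (-0.34 ± 0.11, adjusted p = 0.061). CTSL, another cysteine protease, had 61.9, 64.9 and 66.3 CPM with siRNA 2, 81.1, 73.4 and 79.6 CPM with siRNA 1 and 63.7, 61.0 and 64.7 CPM in control. Only its siRNA 1 libraries stood apart, above all others, and CTSL rose with siRNA 1 (0.31 ± 0.07, adjusted p = 0.027). The difference of siRNA 2 from siRNA 1 was -0.28 ± 0.07 (adjusted p = 0.018). CTSH and CTSZ were not called (from -0.20 to 0.20). With the GC trend removed, CTSH was called higher with siRNA 2 than with siRNA 1 (0.30, adjusted p = 0.019). The CTSB difference between the siRNAs was lost without siRNA 2 replicate 2 or 3 or any control library (adjusted p up to 0.12). The rise of CTSL was lost without siRNA 2 replicate 2, siRNA 1 replicate 3 or any control library (adjusted p up to 0.14), and its difference between the siRNAs without siRNA 2 replicate 2 or 3 or siRNA 1 replicate 3 (adjusted p up to 0.064). With each library's GC trend removed, the CTSC difference between the siRNAs was 0.05 (adjusted p = 0.77) and that of CTSD -0.14 (adjusted p = 0.047). With siRNA 2 against control CTSD was then at -0.01 (adjusted p = 0.89). The rise of CTSC against control was then 0.43 (adjusted p = 0.018).

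The 8 enzymes and cofactors of glycan and lipid breakdown included NEU1, which changed most after CD68 with siRNA 2. Of the 8, 7 (87.5%) differed between the siRNAs, beside 22.4% of all genes. NEU1, the sialidase that removes terminal sialic acid, had 38.6, 32.2 and 31.9 CPM with siRNA 2, 69.1, 65.0 and 61.7 CPM with siRNA 1 and 61.2, 57.2 and 56.4 CPM in control. NEU1 fell 1.70-fold with siRNA 2 (-0.77 ± 0.09, adjusted p = 0.00094) and stood 1.91-fold below siRNA 1 (-0.93 ± 0.09, adjusted p = 0.00023), with no siRNA 2 library near the others. GUSB, beta-glucuronidase, had 38.8, 33.1 and 34.8 CPM with siRNA 2, 69.9, 58.1 and 53.2 CPM with siRNA 1 and 50, 50.8 and 50.1 CPM in control. Its order from low to high was siRNA 2, control, siRNA 1, and it fell with siRNA 2 (-0.50 ± 0.11, adjusted p = 0.013) and was lower than with siRNA 1 (-0.76 ± 0.11, adjusted p = 0.0013). PSAP, the precursor of the saposins that present lipids to hydrolases, had 770, 654 and 646 CPM with siRNA 2, 1005, 875 and 883 CPM with siRNA 1 and 840, 852 and 851 CPM in control. PSAP fell with siRNA 2 (-0.30 ± 0.08, adjusted p = 0.034) and was lower than with siRNA 1 (-0.42 ± 0.08, adjusted p = 0.006). GAA, the glucosidase that degrades glycogen, had 172, 130 and 125 CPM with siRNA 2, 289, 231 and 229 CPM with siRNA 1 and 172, 188 and 182 CPM in control. Its difference between the siRNAs passed (-0.81 ± 0.13, adjusted p = 0.0028), and its values against control did not (-0.34 ± 0.13, adjusted p = 0.11 with siRNA 2 and 0.47 ± 0.13, adjusted p = 0.058 with siRNA 1). With the GC trend removed, GAA stood at -0.01 with siRNA 2 (adjusted p = 0.89). The siRNA 1 value was then 0.43 (adjusted p = 0.00011), which is called. Without the 3 libraries that followed GC content the siRNA 1 value was 0.36. The fall of GUSB was lost without siRNA 2 replicate 2 or 3 or any control library (adjusted p up to 0.068). That of PSAP was lost without siRNA 2 replicate 2 or 3, siRNA 1 replicate 2 or 3, or any control library (adjusted p up to 0.14).

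AGA, HEXA and GLA were the genes of this group called with siRNA 1 against control (37.5%, beside 7.08% of all genes). AGA, which cleaves the link between asparagine and glycans, had 5.41, 5.50 and 5.68 CPM with siRNA 2, 10.9, 11 and 9.42 CPM with siRNA 1 and 3.95, 4.41 and 4.16 CPM in control. The groups did not overlap. AGA rose 2.5-fold with siRNA 1 (1.32 ± 0.12, adjusted p = 0.00047) and 1.32-fold with siRNA 2 (0.41 ± 0.12, adjusted p = 0.048). The direct difference of siRNA 2 from siRNA 1 was -0.92 ± 0.12 (adjusted p = 0.00088). HEXA, the alpha subunit of beta-hexosaminidase, had 35.7, 36.9 and 38.3 CPM with siRNA 2, 24.5, 19.7 and 22.4 CPM with siRNA 1 and 38.2, 39.1 and 37.7 CPM in control. HEXA fell 1.73-fold with siRNA 1 (-0.79 ± 0.09, adjusted p = 0.0015) and was 1.66-fold higher with siRNA 2 than with siRNA 1 (0.73 ± 0.09, adjusted p = 0.00066). Its siRNA 2 and control libraries overlapped. GLA, the alpha-galactosidase, had 31.0, 32.9 and 30.1 CPM with siRNA 2, 40.4, 44.3 and 40.7 CPM with siRNA 1 and 28.9, 27.5 and 31.2 CPM in control. GLA rose with siRNA 1 (0.52 ± 0.08, adjusted p = 0.006), and siRNA 2 was below siRNA 1 (-0.42 ± 0.08, adjusted p = 0.007). GLB1, beta-galactosidase, was not called (from -0.10 to 0.08). The smaller rise of AGA with siRNA 2 was lost without siRNA 2 replicate 2 or 3, siRNA 1 replicate 2 or 3, or any control library (adjusted p up to 0.16), and with the GC trend removed it was 0.28 (adjusted p = 0.21).

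**Figure D2:**
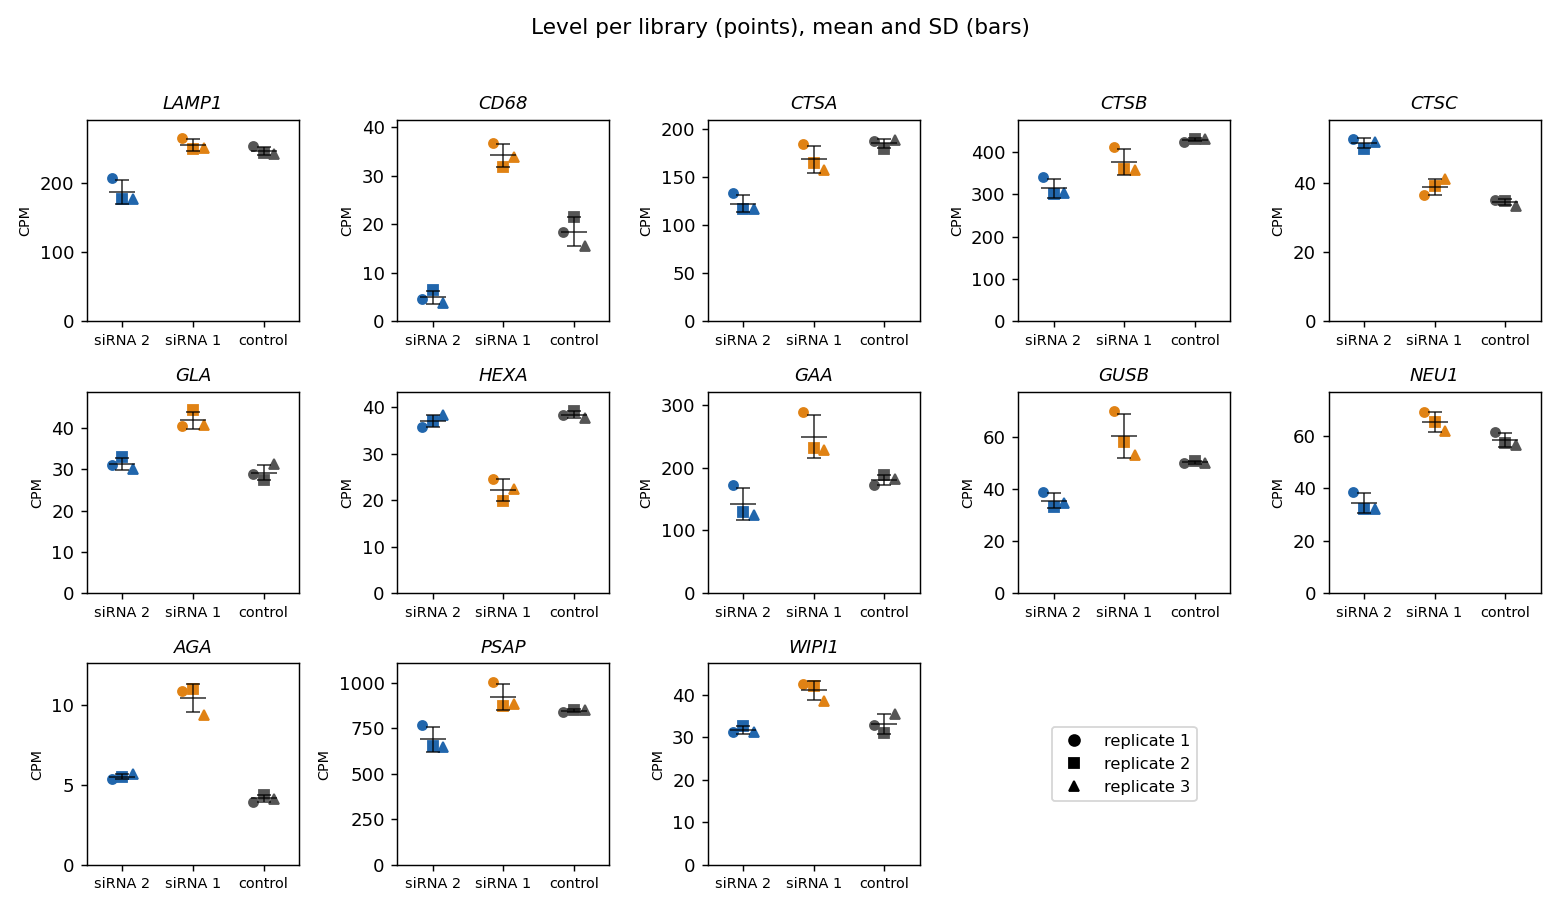
Level in CPM of 13 of the 45 genes in each library (circle, square and triangle for replicates 1, 2 and 3) with the mean and SD of 3 libraries, for siRNA 2, siRNA 1 and control from left to right. These are the genes with at least 1 call kept in every alternative fit. CD68 is at 3.87 to 6.48 CPM with siRNA 2 and 15.5 to 21.5 CPM in control, and AGA reaches 9.42 to 11 CPM with siRNA 1.

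Of the TFEB family, TFE3 was lower with both siRNAs. TFE3 had 29.4, 31.5 and 30.4 CPM with siRNA 2, 35.6, 30.3 and 32.1 CPM with siRNA 1 and 43.6, 40.5 and 40.6 CPM in control. All 6 libraries of siRNA 2 and siRNA 1 lay below the controls, with -0.45 ± 0.08 (adjusted p = 0.0075) for siRNA 2 and -0.35 ± 0.08 (adjusted p = 0.033) for siRNA 1, and siRNA 2 against siRNA 1 was at -0.10 ± 0.08 (adjusted p = 0.42). TFEB had 7.59, 6.60 and 5.78 CPM with siRNA 2, 10.2, 8.88 and 8.08 CPM with siRNA 1 and 6.81, 7.16 and 6.94 CPM in control. It was called only between the siRNAs (-0.44 ± 0.14, adjusted p = 0.044). MITF stayed between 0.717 and 2.16 CPM in all libraries and was not called. The fall of TFE3 with siRNA 2 was lost without control replicate 1 (adjusted p = 0.052) and with the GC trend removed (-0.22, adjusted p = 0.071). That with siRNA 1 was lost without siRNA 2 replicate 2 or 3, siRNA 1 replicate 2 or 3, or any control library (adjusted p up to 0.16). The TFEB difference was lost without siRNA 2 replicate 2 or 3, siRNA 1 replicate 1 or 2, or any control library (adjusted p up to 0.15), and with the GC trend removed (-0.24, adjusted p = 0.11). In that last fit TFEB was called higher with siRNA 1 against control (0.34, adjusted p = 0.043).

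The 8 genes whose promoter sequences are given above were read against the 27 others with a window. With siRNA 2 against control, 4 of the 8 genes with the core fell (LAMP1, MCOLN1, CTSA and NEU1) and none rose, with a median log2 fold change of -0.37. Of the 27 genes without it 7 fell and 3 rose, with a median of -0.06. With siRNA 1 none of the 8 was called (median 0.11), while 5 of the 27 rose and 1 fell (median 0.03). Between siRNA 2 and siRNA 1, 6 of the 8 were lower and none higher (median -0.48), against 9 lower and 2 higher of the 27 (median -0.10). Over all genes, 7.61% were called lower and 6.15% higher with siRNA 2. The shares were 3.36% and 3.72% with siRNA 1, and 12.3% and 10.1% between the siRNAs. How all tested genes with the core moved was not tested. The 8 genes with the core also had transcripts of higher GC content, 51.2% to 64.1% (median 59.4%) against 37.5% to 64.2% (median 50.4%) in the 27 without it. With the GC trend removed, 1 of the 8 rose and 4 fell with siRNA 2 against control, with a median of -0.19 against -0.08 without the core. With siRNA 1, 2 of the 8 then rose and 1 fell (median 0.08 against 0.01). Between the siRNAs 1 was then higher and 6 lower (median -0.27 against -0.11). Of the 27 without the core, 2 rose and 8 fell with siRNA 2 in that setting, 8 rose and 4 fell with siRNA 1, and 2 were higher and 10 lower between the siRNAs. Over all genes, 4464, 4145 and 5642 of 20154 were then called in these comparisons. CD68, CTSC, AGA and GLA, which were among the genes that moved, have neither motif in their windows, and this says only that these letters are not there.

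Among 9 subunits and accessory proteins of the proton pump, 2 (22.2%) fell with siRNA 2 and 1 (11.1%) with siRNA 1, beside 13.8% and 7.08% of all genes called. ATP6V1C1, the subunit that links stator and catalytic head, had 121, 140 and 139 CPM with siRNA 2, 85.6, 102 and 103 CPM with siRNA 1 and 130, 135 and 126 CPM in control. It fell with siRNA 1 (-0.43 ± 0.09, adjusted p = 0.02) and was higher with siRNA 2 than with siRNA 1 (0.47 ± 0.09, adjusted p = 0.0066), its siRNA 1 libraries lying below all others. ATP6V0A1, a membrane subunit of the proton channel, had 63.6, 68.1 and 67.1 CPM with siRNA 2, 75.5, 72.3 and 71.0 CPM with siRNA 1 and 78.5, 80.8 and 77.1 CPM in control. It fell with siRNA 2 (-0.25 ± 0.06, adjusted p = 0.03). ATP6AP1, an accessory protein of pump assembly, had 96.1, 93.8 and 90.3 CPM with siRNA 2, 109, 89.1 and 92.8 CPM with siRNA 1 and 112, 114 and 115 CPM in control. It fell with siRNA 2 (-0.29 ± 0.08, adjusted p = 0.043). In both genes every siRNA 2 library lay below every control library. ATP6V0D1, ATP6V0E1, ATP6V1A, ATP6V1B2, ATP6V1D and ATP6V1H were not called, with log2 fold changes from -0.15 to 0.20. ATP6V1B2 was called lower with siRNA 2 than with siRNA 1 once the GC trend was removed (-0.39, adjusted p = 0.021). With the GC trend removed, ATP6V0D1 was called higher against control with siRNA 2 (0.32, adjusted p = 0.0012). Its value with siRNA 1 was then 0.17 (adjusted p = 0.041), also called. Without the 3 libraries that followed GC content, the siRNA 2 value, from 1 library, was 0.27 and that of siRNA 1 was 0.12. The falls of ATP6V0A1 and ATP6AP1 were each lost without siRNA 2 replicate 2 or 3, siRNA 1 replicate 2 or 3, or any control library (adjusted p up to 0.14 and 0.17). That of ATP6V1C1 was lost without any control library (adjusted p up to 0.091), and its difference between the siRNAs was 0.18 with the GC trend removed (adjusted p = 0.041).

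Among the autophagy genes, 2 of the 4 Atg8-family genes (50%) fell with siRNA 2, beside 13.8% of all genes called. MAP1LC3B, which encodes LC3B, the lipid-anchored protein used to follow autophagosomes, had 117, 112 and 114 CPM with siRNA 2, 118, 174 and 163 CPM with siRNA 1 and 154, 153 and 163 CPM in control. It fell with siRNA 2 (-0.46 ± 0.12, adjusted p = 0.035) and was lower than with siRNA 1 (-0.41 ± 0.12, adjusted p = 0.04), although siRNA 1 replicate 1 lay close to the siRNA 2 libraries. GABARAPL1, a paralog that binds the same receptors, had 45.4, 46.9 and 51.3 CPM with siRNA 2, 52.9, 51.5 and 55.5 CPM with siRNA 1 and 62.0, 58.0 and 61.6 CPM in control. It fell with siRNA 2 (-0.34 ± 0.07, adjusted p = 0.015). GABARAP and GABARAPL2 were not called (from -0.15 to 0.08). With the GC trend removed, GABARAPL2 was called lower with siRNA 2 against control (-0.27, adjusted p = 0.008) and against siRNA 1 (-0.25, adjusted p = 0.0093). The fall of MAP1LC3B was lost without siRNA 2 replicate 2 or 3 or any control library (adjusted p up to 0.12). Its difference between the siRNAs was lost without each library but siRNA 1 replicate 1 (adjusted p up to 0.12). The fall of GABARAPL1 was lost without siRNA 2 replicate 2 or any control library (adjusted p up to 0.08). Near-identical copies exist of MAP1LC3B and GABARAPL1, and pseudogenes of GUSB and CTSL, so the counting of reads that match several copies makes these 4 levels uncertain.

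BECN1 rose with siRNA 2 among the 5 genes of initiation and phagophore formation, and WIPI1 with siRNA 1. Each is 20% of the 5, beside 13.8% and 7.08% of all genes called. BECN1, the scaffold of the lipid kinase complex that marks the nascent phagophore, had 83.4, 80.8 and 80.7 CPM with siRNA 2, 64.0, 69.5 and 69.4 CPM with siRNA 1 and 66.4, 66.5 and 65.2 CPM in control. All siRNA 2 libraries lay above the others (0.31 ± 0.06, adjusted p = 0.013 against control and 0.27 ± 0.06, adjusted p = 0.015 against siRNA 1). WIPI1, which reads the lipid made by that kinase, had 31.1, 32.7 and 31.3 CPM with siRNA 2, 42.4, 42.1 and 38.4 CPM with siRNA 1 and 32.9, 30.9 and 35.5 CPM in control. Its siRNA 1 libraries lay above the rest (0.31 ± 0.08, adjusted p = 0.049 against control). The difference of siRNA 2 from siRNA 1 was -0.37 ± 0.08 (adjusted p = 0.011). ULK1, the kinase that starts autophagy, had 49.2, 40.2 and 36.7 CPM with siRNA 2, 61.5, 53.9 and 49.8 CPM with siRNA 1 and 48.7, 51.3 and 51.8 CPM in control. It was called only between the siRNAs (-0.39 ± 0.12, adjusted p = 0.037). UVRAG and WIPI2 were not called (from -0.13 to 0.12). Nor was any of the 4 genes of the conjugation system, ATG5, ATG7, ATG12 and ATG16L1, whose log2 fold changes ran from -0.42 to 0.40. ATG12 reached both of these values, with 54.1, 106 and 104 CPM with siRNA 1 against 115, 118 and 121 CPM in control. Replicate 1 stood far below the rest, and the other siRNA 1 libraries also lay below every control library. With the GC trend removed, ATG12 was called lower with siRNA 1 against control (-0.26, adjusted p = 0.033). ATG5 was then called lower with siRNA 2 against control (-0.32, adjusted p = 0.037) and against siRNA 1 (-0.33, adjusted p = 0.029). The rise of BECN1 was lost without siRNA 2 replicate 2 or 3 or any control library (adjusted p up to 0.065), and its difference between the siRNAs without siRNA 2 replicate 2 or 3 (adjusted p up to 0.054). The rise of WIPI1 was lost without siRNA 2 replicate 2 or 3, siRNA 1 replicate 2 or 3, or any control library (adjusted p up to 0.2). The ULK1 difference was lost without siRNA 2 replicate 2 or 3, siRNA 1 replicate 1 or 2, or any control library (adjusted p up to 0.14). It was -0.02 with the GC trend removed (adjusted p = 0.85).

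Levels also differed widely among the 45 genes. Per kilobase of the longest annotated transcript, control libraries averaged 295 CPM per kilobase for PSAP, 158 for CD63, 111 for CTSB, 84.5 for CTSZ and 76.4 for CTSD. At the low end, the level was 0.35 CPM per kilobase for MITF, 1.98 for AGA, 2.69 for TFEB and 3.27 for UVRAG. The gene with the largest fall, CD68, stood at 9.84 CPM per kilobase in control.

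Fold changes with siRNA 2 were lower at high GC content among the 45 genes, as they were among all genes. Among the 10 with a transcript GC content of at least 55%, the median log2 fold change with siRNA 2 against control was -0.34, against -0.23 over the 6130 tested genes of that range, and 4 fell and none rose. Among the 11 under 45% it was 0.02, against 0.14 over 6960 genes, and 2 rose and none fell. In the 24 between, 9 fell and 1 rose, with a median of -0.09 against 0.01 over 7110 genes. Over all genes of any GC content, 7.61% were called lower and 6.15% higher, and the shares by GC range were not tested. With the GC trend removed, the medians of the 45 genes were -0.01, -0.11 and -0.14 for the high, low and middle ranges. CD68, NEU1, CTSA, CTSB and LAMP1 were still called lower with siRNA 2 (from -1.78 for CD68 to -0.35 for CTSA). Among the genes called with siRNA 2 against control, removal shrank the value by over 1.5 times for MCOLN1 (-0.40), CTSA (-0.35), ATP6AP1 (-0.18) and TFE3 (-0.22, no longer called). Among those called between the siRNAs it did so for MCOLN1 (-0.35), CTSA (-0.19), CTSB (-0.16), CTSD (-0.14), GAA (-0.44) and ATP6V1C1 (0.18). It also did so there for LAMP2 (0.07), CTSC (0.05), TFEB (-0.24) and ULK1 (-0.02), none of them still called. Leaving out the 3 libraries that followed GC content leaves siRNA 2 with 1 library, so only effect sizes are given. The values were then -0.25 for LAMP1 and -0.14 for PSAP with siRNA 2 against control. Between the siRNAs they were -0.27 for LAMP1, -0.20 for PSAP, -0.43 for GAA, -0.40 for MCOLN1 and -0.08 for CTSB.

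**Figure D3:**
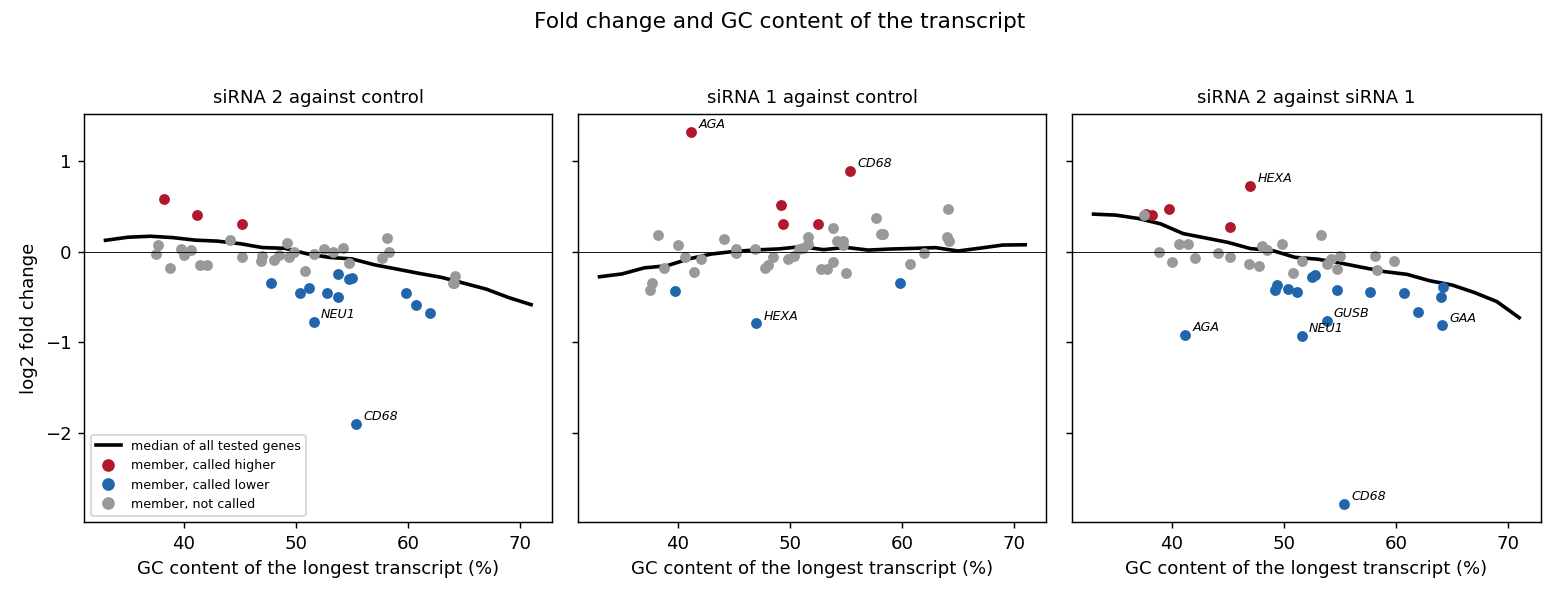
Log2 fold change of each of the 45 genes (points; red called higher, blue called lower, grey not called) against the GC content of its longest transcript in percent, with the median of all tested genes in steps of 2 percentage points of GC content (line). The line falls with GC content in the comparisons of siRNA 2, and CD68, at -1.90 and -2.78, lies far below it.

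Calls that were kept in each leave-one-library-out fit and in every other alternative fit, the 1.5-fold minimum aside, were those of CD68, CTSA, CTSB, CTSC and NEU1 with siRNA 2 (5 of 16) and of GLA, HEXA and AGA with siRNA 1 (3 of 8). Between the siRNAs, 11 of 22 were kept: LAMP1, CD68, CTSA, GLA, HEXA, GAA, GUSB, NEU1, AGA, PSAP and WIPI1. The alternatives included the fit in which siRNA 2 has 1 library. Calls over all genes also changed when 1 library was left out. They went from 2872 to between 1080 and 5289 with siRNA 2 and from 1478 to between 439 and 2538 with siRNA 1. Between the siRNAs they went from 4681 to between 2130 and 5843. The share of all called genes that was kept was not counted. Among others, annotated exons of CTSA, WIPI1, BECN1, ATP6V1D, ATG7, ATG12, MAP1LC3B and HEXA overlap genes on the opposite strand, and those of CTSD and HEXA also genes on the same strand. Whether counting used strand is not stated, so reads of such pairs cannot be told apart.

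**Figure D4:**
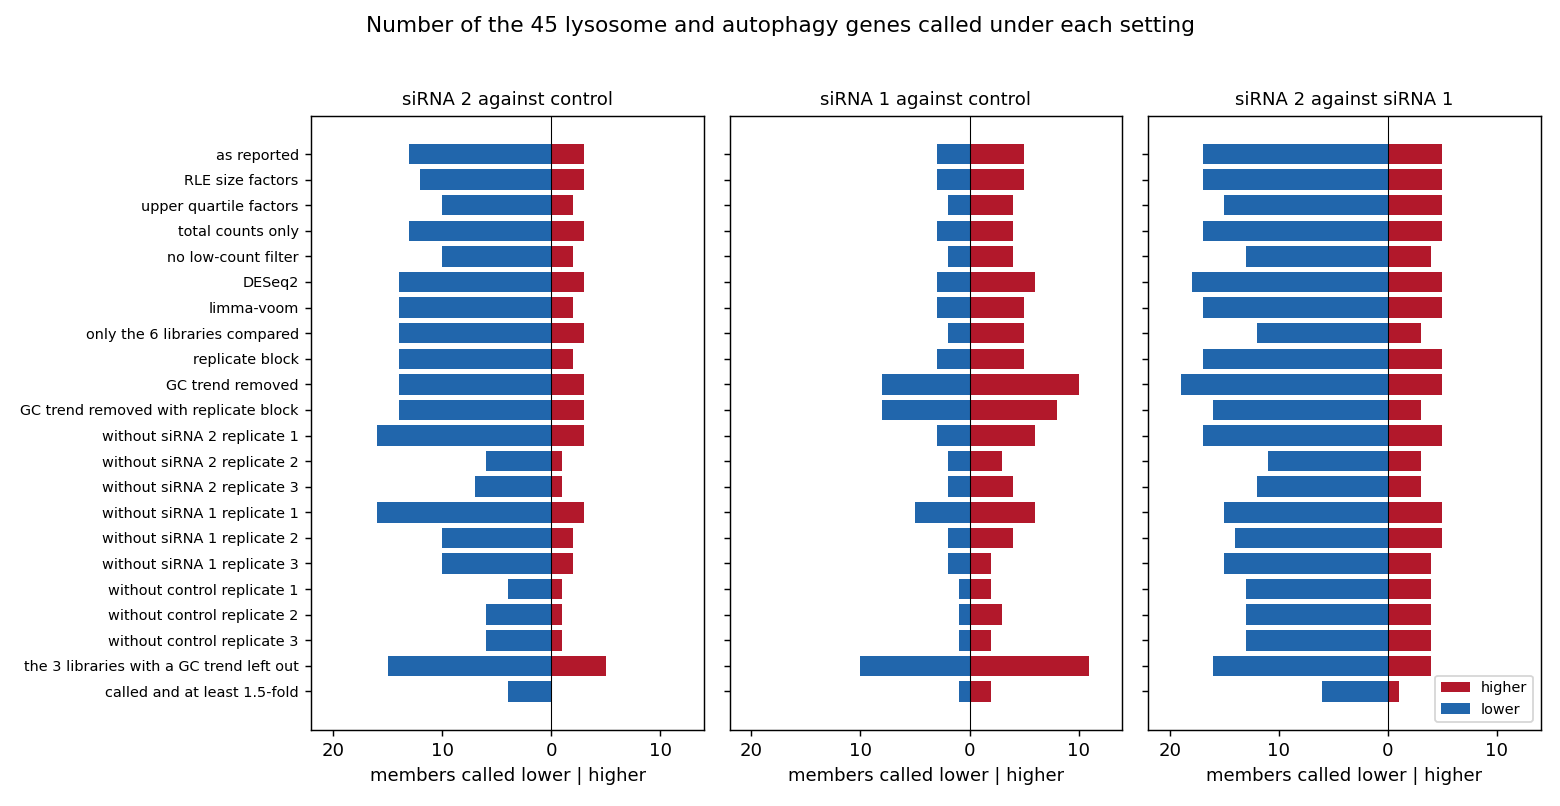
Number of the 45 genes called lower (blue, left of 0) and higher (red, right of 0) under the reported processing (top) and each alternative, for siRNA 2 against control, siRNA 1 against control and siRNA 2 against siRNA 1. As reported the bars are 13 lower and 3 higher, 3 lower and 5 higher, and 17 lower and 5 higher. Leaving out any control library shortens those of both comparisons with control. With the 3 libraries that followed GC content left out, siRNA 2 has 1 library.

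The wider pathway was read from 94 other lysosome and autophagy genes, of which 91 were tested (all but GALC, CTSF and MAP1LC3A). With siRNA 2 against control 4 rose and 18 fell, 24.2% of the 91, beside 13.8% of all genes. With siRNA 1 5 rose and 5 fell, 11% of the 91, beside 7.08%. Between siRNA 2 and siRNA 1, 10 were higher and 22 lower, 35.2% of the 91, beside 22.4%. The median log2 fold changes were -0.06, -0.05 and -0.03, beside -0.01, -0.02 and 0.00 over all genes. By role, with siRNA 2 against control, 3 of 24 hydrolases rose and 5 fell (33.3% called), and 5 of 25 autophagy genes fell and none rose (20% called). Of 14 membrane and transport genes 2 fell (14.3%), a share near the 13.8% of all genes.

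NPC1, which moves cholesterol out of the lysosome, had 55.7, 63.6 and 59.3 CPM with siRNA 2, 104, 96.9 and 94.1 CPM with siRNA 1 and 102, 103 and 99.7 CPM in control. It fell with siRNA 2 (-0.77 ± 0.07, adjusted p = 0.00032) and was lower than with siRNA 1 (-0.72 ± 0.07, adjusted p = 0.00027), and both calls were kept in every alternative fit. The other large falls with siRNA 2 were in the pump subunit TCIRG1 (-0.76 ± 0.15, adjusted p = 0.011) and the protease CTSK (-0.67 ± 0.16, adjusted p = 0.023). Rises with siRNA 2 included the mannosidase MANBA (0.37 ± 0.09, adjusted p = 0.02) and the sorting receptor IGF2R (0.33 ± 0.07, adjusted p = 0.011). With siRNA 1 the pump subunits ATP6V1F (0.61 ± 0.10, adjusted p = 0.0071) and ATP6V0E2 (0.54 ± 0.10, adjusted p = 0.013) rose most. FNIP1, part of the complex that controls TFEB through the Rag GTPases (-0.75 ± 0.16, adjusted p = 0.021), LIPA, the lysosomal lipase (-0.54 ± 0.11, adjusted p = 0.016), and NPC2, the soluble partner of NPC1 (-0.44 ± 0.08, adjusted p = 0.012), fell most. FNIP1 was higher with siRNA 2 than with siRNA 1 (0.77 ± 0.16, adjusted p = 0.009), as were CTSO, a protease (0.94 ± 0.23, adjusted p = 0.019), and OSTM1, partner of a chloride transporter (0.68 ± 0.18, adjusted p = 0.025). ATG4D, a protease that processes Atg8 proteins (-0.62 ± 0.10, adjusted p = 0.0022), and the pump subunit ATP6V0B (-0.59 ± 0.12, adjusted p = 0.0076) were lower. Calls against control lost when a single control library was left out were those of MANBA (control replicate 1 or 3), IGF2R, CTSK, ATP6V0E2, FNIP1, LIPA and NPC2 (each of the 3) and TCIRG1 (3), with adjusted p up to 0.094. Those of MANBA, IGF2R and TCIRG1 were also lost without siRNA 2 replicate 2 or 3, that of CTSK without siRNA 2 replicate 2, and that of NPC2 without siRNA 1 replicate 2 or 3. The differences between the siRNAs were lost without siRNA 2 replicate 2 for CTSO and without siRNA 2 replicate 2 or 3 for OSTM1 (adjusted p up to 0.084). With the GC trend removed, MANBA was at 0.23 (adjusted p = 0.14) and TCIRG1 at -0.40 (adjusted p = 0.001) with siRNA 2 against control. Between the siRNAs, FNIP1 was then at 0.48, OSTM1 at 0.34 and ATG4D at -0.23, all still called.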

How the data were processed

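Read counts of the 9 libraries were analysed as the authors deposited them, in 1 table keyed by Ensembl gene identifiers and described as raw counts per the labels. Per the submitters' processing notes, the genome was hg19. Aligner, counting tool, annotation and strand setting: not given in the sources used here. Depth was 56.8 to 66.5 M counts per library, reads carried no molecular identifiers, and SDs and standard errors rest on the spread between libraries. Of 61806 identifiers, 61757 matched a symbol, and the 49 others held 0.0158% of the counts.

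The test was edgeR's two-sided quasi-likelihood test (edgeR 4.0.16, R 4.3.3) with TMM factors. The filter filterByExpr, with minimum count 10 and total 15, kept 20868 genes and 99.96% of counts. All 9 libraries entered 1 model of group means, with Benjamini-Hochberg adjustment over all genes tested and a threshold of 0.05. The standard error is the one implied by the F statistic. CPM were scaled by TMM factors. GC content and length are of each gene's longest transcript in a GENCODE annotation on GRCh38, used for names, overlaps and these properties only; promoter sequences are from RefSeq, GRCh38.p14. Alternatives were other scaling factors, no low-count filter, DESeq2 1.42.0, limma-voom (limma 3.58.1), only the 6 libraries compared, a replicate block, removal of each library's GC trend (lowess, span 0.3), leaving out each library, and a 1.5-fold minimum. Leaving out the 3 libraries that followed GC content was added after seeing the data and leaves siRNA 2 with 1 library. The fits were checked on simulated counts. Replicate counts differed by more than sampling noise in every pair of a group, so no library was treated as a copy of another. Whether the libraries of a group are technical repeats cannot be told from this.

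All 45 genes are accounted for; those called in any comparison, at an average log2 CPM no lower than 1, are given in all libraries, and of the 94 wider genes the 3 largest called rises and falls per comparison are named. Some results that this rule would name are not reported here. The members and lists were chosen with earlier results of these data known.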

Additional observations from a re-analysis of the deposited data

Results flagged for a closer look

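CD68 and AGA were called against control with both siRNAs and between the siRNAs by the direct test. The log2 difference of CD68, siRNA 2 minus siRNA 1, was -2.78 (adjusted p = 4.1e-05, edgeR's quasi-likelihood test), with siRNA 2 below control in 3 of 3 libraries and siRNA 1 above control in 3 of 3. That of AGA was -0.92 (adjusted p = 0.00088), with both siRNAs above control in 3 of 3 libraries each and siRNA 1 higher than siRNA 2. The calls between the siRNAs held in every alternative fit. The rise of AGA with siRNA 2 (0.41, adjusted p = 0.048) was lost without any of 7 libraries, all but siRNA 2 replicate 1 and siRNA 1 replicate 1, and, among other settings, with the GC trend removed (0.28, adjusted p = 0.21). The rise of CD68 with siRNA 1 was lost without siRNA 1 replicate 3 or without control replicate 1 or 3 (adjusted p up to 0.09). Both comparisons with control share the control libraries. The AGA window in RefSeq and that of CD68 hold neither promoter motif. Groups of 3 libraries were not tested for libraries that stand apart.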

How the results depend on the processing

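Against the 16 genes called with siRNA 2, 8 with siRNA 1 and 22 between the siRNAs, a 1.5-fold minimum left 4, 3 and 7. Leaving out 1 library gave 5 to 19 with siRNA 2 (fewest without control replicate 1), 3 to 11 with siRNA 1 (fewest without control replicate 1 or 3) and 14 to 22 between the siRNAs (fewest without siRNA 2 replicate 2). With siRNA 1, removing the GC trend gave 18, the GC trend removed with a replicate block 16, and leaving out the 3 libraries with a GC trend 21, a choice made after seeing the data that leaves siRNA 2 with 1 library, assumed to vary like the other groups. The replicate block gave 16, 8 and 22 genes, beside 3311, 1582 and 5150 of 20868 genes. Same-numbered libraries did not deviate together (correlations of -0.0365 to 0.0956), so the numbers were not taken as pairs. The value of ATP6V0D1 between the siRNAs changed sign and became called with the GC trend removed (0.16). With the 3 libraries left out, CTSZ with siRNA 2 (0.24) and ATP6V1A with siRNA 1 (0.12) against control changed sign. The cause was not tested. Over all genes, the 2872 calls with siRNA 2 became 4464 with the GC trend removed, 4664 with only the 6 libraries compared and 1080 to 5289 when a library was left out; the 1478 with siRNA 1 became 4145, 2840 with DESeq2, 969 without the low-count filter and 439 to 2538; the 4681 between the siRNAs became 2325 with only the 6 libraries compared and 2130 to 5843. Other scaling factors, DESeq2, limma-voom and no low-count filter kept each count of the 45 within 1.5 times. EXOSC10-AS1 had at most 26 counts in a library and was not called with either siRNA, so whether it was lowered is not established here.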
